A study of Mus musculus with 6 samples.

Results

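The 34 genes described here encode the contractile apparatus and the calcium release system of skeletal muscle. They were found by symbol in a deposited gene count table of 55401 genes, and all 34 passed the filter on low counts that left 19687 genes for testing. The counts come from bulk mRNA sequencing of mouse inner ear. There were 6 libraries, 3 with the genotype WT (WT1, WT2 and WT3) and 3 with the genotype Pou3f4y/-, the mutant (KO1, KO2 and KO3). Pou3f4 encodes a transcription factor, and per the design text the comparison addresses how pigment arises in the inner ear of these mutants. The labels describe all 6 libraries alike, with the tissue "inner ear cells", the cell line "interstitial cells", the cell type "all the cells" and the treatment "identify". They give no strain, age, sex, allele or dissection, and do not say that replicates came from separate animals, so the p-values measure only the spread between these libraries.

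A skeletal muscle fibre is packed with sarcomeres, in which thick filaments of myosin pull on thin filaments of actin anchored at the Z-disc. In excitation-contraction coupling, a voltage sensor in the fibre membrane opens a release channel of the sarcoplasmic reticulum, calcium binds troponin on the thin filament, and a pump takes the calcium back up. Fast and slow fibres build most of these structures from different genes. The organ of hearing and balance itself is not made of muscle, and the small muscles of the ear attach to the ossicles of the middle ear.

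Library totals lay between 18409409 and 23323953 counts. Pou3f4 followed the genotype labels, with 1044 to 2233 counts in the WT libraries and 28 to 45 in the mutant ones. The label Pou3f4y/- describes hemizygous males, but KO2 and KO3 held 15783 and 15119 counts of Xist, which is made from an inactive X, and 0 counts of each of 4 Y-linked genes. Counts of the Y-linked genes stood in WT3 and KO1, which are the highest and the lowest library in muscle reads. Libraries of 1 genotype thus differed in sex and did not all come from the same animals, while whether WT1 and WT2, or KO2 and KO3, came from separate animals is not given, and the part of technical spread between them was not tested.

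The level of the muscle genes differed widely between libraries of the same genotype. They took 0.854% of all counts in WT1 (exact 95% binomial interval 0.850 to 0.859%), 0.0309% in WT2 (0.0301 to 0.0317%) and 1.48% in WT3 (1.48 to 1.49%). They took 0.0124% in KO1 (0.0120 to 0.0129%), 0.123% in KO2 (0.121 to 0.124%) and 0.0147% in KO3 (0.0141 to 0.0152%). WT2 lay below KO2, so the genotypes overlapped. The intervals cover counting error alone. In bulk tissue, fewer muscle fibres and less RNA per fibre cannot be told apart.

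Levels below are in CPM, counts scaled to a library of 1000000 after TMM normalization. A count of 0 allows up to 3 counts, which is 0.131 to 0.168 CPM in these libraries. All 34 genes were highest in WT3. The 3 highest libraries were WT3, WT1 and KO2, in that order, in 33 of the 34 genes and in 1.39% of all genes tested. Smpx was the exception. The full order of the summed level, WT3, WT1, KO2, WT2, KO3 and KO1, held in 22 of the 34 and in 0.442% of all genes tested. The lowest library was KO1 for 22 genes, KO3 for 8 and WT2 for 4 (Actn3, Tpm2, Tnnc1 and Myl3). The highest library exceeded the lowest at least 20-fold in 29 of the 34 genes and in 1.12% of all genes tested, with a median of 105-fold over the 34 and 1.59-fold over all genes tested. The genes share the same 6 libraries, so these counts describe the libraries.

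**Figure D1:**
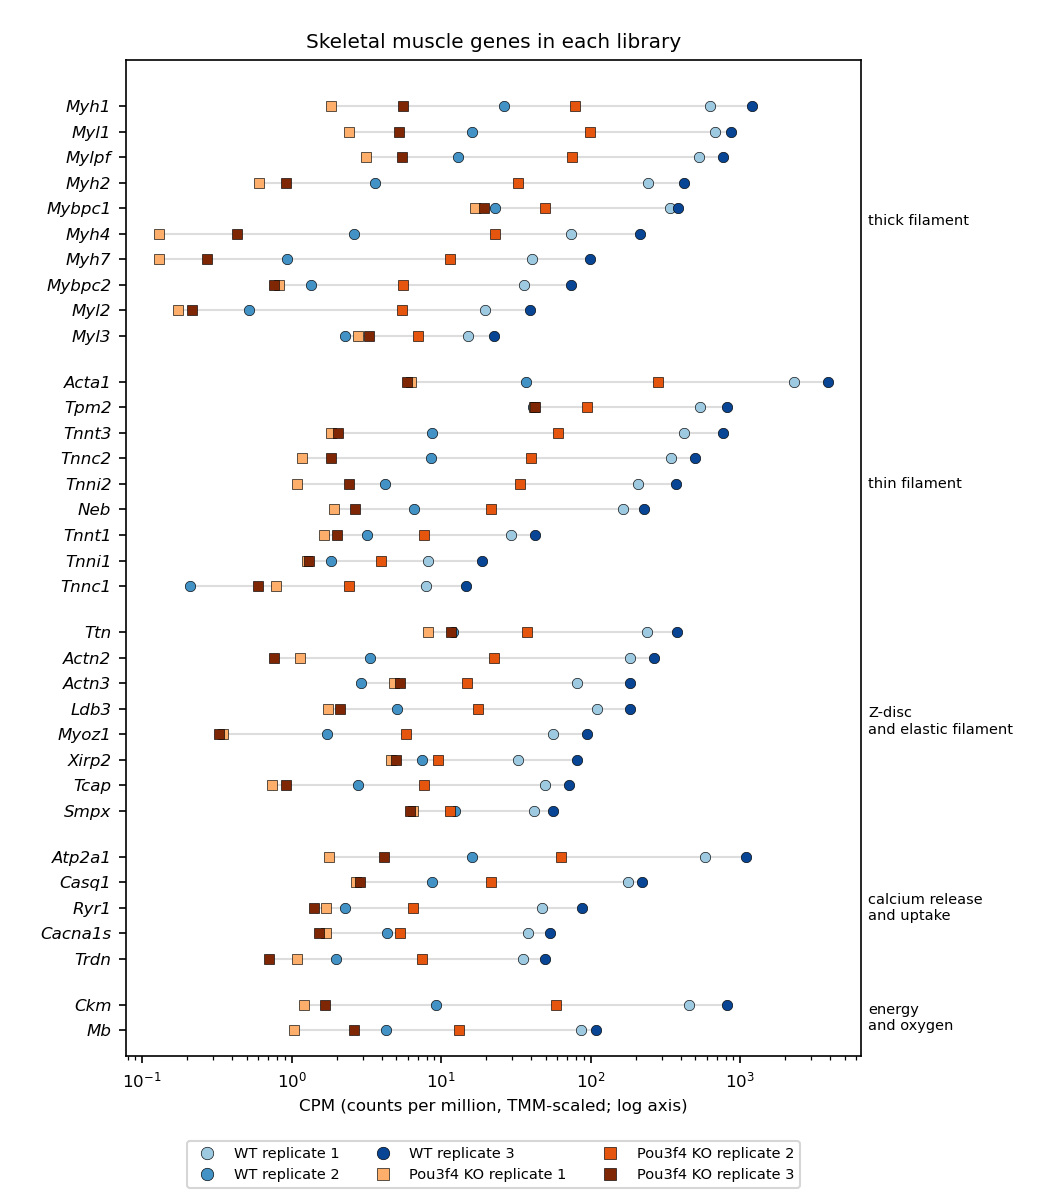
Level of each of the 34 genes (CPM, log axis) in the 3 WT and the 3 Pou3f4 KO libraries, with genes grouped by role. WT3 is the highest library in 34 of 34 genes, and KO2 lies above WT2 in 33 of 34.

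Promoter sequence, the 250 bases before a RefSeq transcription start (GRCm38.p6, the same build as mm10), was available for 27 of the 34 genes, in 33 windows. A RefSeq start can differ from the start of the gene model that was counted. Actn3, Myoz1, Neb, Tcap, Tnni2, Tnnt3 and Trdn were not matched. Windows of 5 genes are shown as examples. Acta1, Mylpf and Myh4 differed across libraries over a wide range, and Smpx and Xirp2 over a narrower one. Smpx did not share the order of the 3 highest libraries. Capitals mark matches, on either strand, to the E-box core CAGCTG, the MCAT box CATTCC, the CArG box and the MEF2 site, which do not overlap each other here. The windows are Acta1 (chr8:123894776-123895025, minus strand), Mylpf (chr7:127211358-127211607, plus strand), Myh4 (chr11:67237562-67237811, plus strand), Xirp2 (chr2:67445752-67446001, plus strand) and Smpx (chrX:157698723-157698972, plus strand). The windows of Mylpf and Xirp2 lie inside the counted gene models, which start at 127208890 and 67173834. That of Smpx runs past the model start at 157698910. Each is printed 5′ to 3′ towards the RefSeq start.
Acta1: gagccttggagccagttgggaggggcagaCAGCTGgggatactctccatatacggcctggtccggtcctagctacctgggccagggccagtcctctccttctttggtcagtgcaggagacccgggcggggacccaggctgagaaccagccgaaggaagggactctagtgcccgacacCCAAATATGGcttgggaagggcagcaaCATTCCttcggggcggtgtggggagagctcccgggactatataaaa
Mylpf: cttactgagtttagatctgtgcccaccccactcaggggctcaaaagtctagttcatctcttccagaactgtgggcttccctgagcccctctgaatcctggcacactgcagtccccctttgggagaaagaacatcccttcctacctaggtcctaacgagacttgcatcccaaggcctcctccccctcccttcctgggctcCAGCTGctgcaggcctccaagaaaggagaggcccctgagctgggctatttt
Myh4: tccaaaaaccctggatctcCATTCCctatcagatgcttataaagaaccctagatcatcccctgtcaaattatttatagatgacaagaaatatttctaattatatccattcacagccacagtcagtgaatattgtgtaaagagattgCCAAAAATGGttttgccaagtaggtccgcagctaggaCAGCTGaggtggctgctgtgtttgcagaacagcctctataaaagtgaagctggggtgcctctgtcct
Xirp2: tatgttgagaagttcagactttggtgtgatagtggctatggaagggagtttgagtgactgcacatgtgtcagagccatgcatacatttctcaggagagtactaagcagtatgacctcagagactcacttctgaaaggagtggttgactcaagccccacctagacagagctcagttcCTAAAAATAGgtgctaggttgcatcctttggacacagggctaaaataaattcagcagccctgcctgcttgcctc
Smpx: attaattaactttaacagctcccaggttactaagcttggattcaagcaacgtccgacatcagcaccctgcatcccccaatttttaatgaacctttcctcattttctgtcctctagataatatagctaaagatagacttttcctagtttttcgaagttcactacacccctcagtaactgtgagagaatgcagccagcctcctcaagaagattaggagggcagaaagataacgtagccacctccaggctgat

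Acta1 has, counted in bases before the RefSeq start, the E-box core at 221 to 216, the CArG box at 73 to 64 and the MCAT box at 46 to 41. Mylpf has the E-box core at 51 to 46. Myh4 has the MCAT box at 231 to 226, the CArG box at 104 to 95 and the E-box core at 67 to 62. Xirp2 has a MEF2 site at 74 to 65, and the window of Smpx holds none of these letters. The windows of Myh2, Actn2, Tnnc2, Ryr1 and Tnnt1 hold none either, though these genes shared the order of the 3 highest libraries. Myl3, with a narrow range, holds a CArG box and MCAT boxes. The matches thus did not separate the genes by their range or order. Over all windows of the 34 genes, the E-box core stood in 15 of 33 (45.5%), against 13.0% of 32851 RefSeq windows of the same length. The MCAT box stood in 9 of 33 (27.3% against 12.6%), the CArG box in 5 (15.2% against 1.47%, in Acta1, Ldb3, Myh4 and Myl3) and the MEF2 site in 2 (6.06% against 0.508%, in Ttn and Xirp2). Overlapping windows of Tnni1, Mb and Ldb3 hold the same site and count it more than once. By gene, the E-box core stood in 13 of 27, the MCAT box in 9, the CArG box in 4 and the MEF2 site in 2. A match describes the letters and is not a bound site.

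Among the thick filament genes, the highest in CPM was Myh1 in WT2 and WT3 and the fast light chain Myl1 in WT1 and KO2. In KO1 and KO3 it was Mybpc1, the slow myosin-binding protein C. Myh1, the heavy chain of fast IIX fibres (mm10 chr11:67200052-67224575, plus strand), stood at 625, 26.3 and 1202 CPM in WT1 to WT3 and 1.83, 79.1 and 5.57 CPM in KO1 to KO3. Myh2, the IIA heavy chain (mm10 chr11:67171027-67197517, plus strand), stood at 243, 3.60 and 423 CPM in WT1 to WT3 and 0.609, 32.8 and 0.919 CPM in KO1 to KO3. Myh4, the IIB heavy chain (mm10 chr11:67238029-67260446, plus strand), stood at 73.9, 2.61 and 214 CPM in WT1 to WT3 and 0.131, 22.9 and 0.433 CPM in KO1 to KO3. In each of these, KO2 lay above WT2 and the groups overlapped. These heavy chain genes are close copies in 1 cluster, and the counting could have split or dropped reads that they share. Myh7, the slow heavy chain (mm10 chr14:54970684-54994626, minus strand), stood at 40.5, 0.938 and 98.6 CPM in WT1 to WT3 and 0.131, 11.5 and 0.270 CPM in KO1 to KO3. It had the largest ratio of KO2 to WT2 of the 34 genes, 12.3-fold.

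The light chains sit on the neck of the myosin head and had WT3, WT1 and KO2 as their 3 highest libraries. Mylpf, the fast regulatory light chain, stood at 529, 12.9 and 765 CPM in WT1 to WT3 and 3.13, 75.4 and 5.52 CPM in KO1 to KO3. Myl1, the fast essential light chain, stood at 685, 16.1 and 865 CPM in WT1 to WT3 and 2.44, 98.4 and 5.25 CPM in KO1 to KO3. Per exon kilobase in WT3, Mylpf stood at 720.4 CPM per kb and its slow counterpart Myl2 at 20.3, and Myl1 at 417 CPM per kb and its slow counterpart Myl3 at 11.1. Myl3 was the gene of the 34 with the narrowest spread apart from Smpx, at 15.03, 2.29 and 22.7 CPM in WT1 to WT3 and 2.79, 7.06 and 3.30 CPM in KO1 to KO3. Myosin-binding protein C braces the thick filament, and here the slow form led. Mybpc1, the slow form, stood at 337, 23.04 and 382 CPM in WT1 to WT3 and 16.98, 49.2 and 19.4 CPM in KO1 to KO3. Mybpc2, the fast form, stood at 35.98, 1.36 and 74.1 CPM in WT1 to WT3 and 0.827, 5.53 and 0.757 CPM in KO1 to KO3.

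Skeletal actin, Acta1, the core of the thin filament (mm10 chr8:123891769-123894751, minus strand), held the most reads of the 34 genes in WT1, WT3 and KO2, while Tpm2 held more in WT2, KO1 and KO3. Acta1 stood at 2305, 37.3 and 3850.4 CPM in WT1 to WT3 and 6.31, 284 and 5.95 CPM in KO1 to KO3, and made up 26.04%, 12.6% and 26.7% of the reads of the 34 genes in WT1 to WT3. In KO1 to KO3 its part was 4.998%, 22.9% and 3.97%, so that KO1 and KO3 held proportionally less actin than KO2. Per kilobase of exon, Acta1 was the highest of the 34 genes in WT3, at 2507 CPM per kb, before Mylpf (720.4) and Tnnc2 (628), and titin, the largest protein, was the lowest (3.24). Nebulin, Neb, which runs along the thin filament, stood at 165, 6.57 and 226 CPM in WT1 to WT3 and 1.92, 21.7 and 2.65 CPM in KO1 to KO3.

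Troponin and tropomyosin place calcium control on the thin filament. Tnnt3, the fast troponin T that ties the complex to tropomyosin, stood at 424, 8.65 and 769 CPM in WT1 to WT3 and 1.83, 60.7 and 2.06 CPM in KO1 to KO3. Tnni2, the fast inhibitory subunit, stood at 209, 4.22 and 373 CPM in WT1 to WT3 and 1.09, 33.9 and 2.43 CPM in KO1 to KO3. Tnnc2, the fast calcium sensor, stood at 345, 8.55 and 503 CPM in WT1 to WT3 and 1.18, 39.7 and 1.84 CPM in KO1 to KO3. All 3 were far lower in WT2 than in WT1 and WT3, with KO2 between. Per exon kilobase in WT3 the slow subunits stood at 19.3 (Tnnt1), 5.20 (Tnni1) and 14.1 (Tnnc1) CPM per kb, against 486 (Tnnt3), 249 (Tnni2) and 628 (Tnnc2). Tpm2, a tropomyosin that smooth muscle also makes, stood at 538, 41.4 and 821 CPM in WT1 to WT3 and 41.9, 95.1 and 42.3 CPM in KO1 to KO3. Its 3 lowest libraries, WT2, KO1 and KO3, covered 41.4 to 42.3 CPM, a nearly level floor across both genotypes.

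At the Z-disc, where the thin filaments end, WT3, WT1 and KO2 were again the 3 highest libraries in 7 of 8 genes, all but Smpx. Titin, Ttn, the elastic filament, stood at 237, 11.99 and 379 CPM in WT1 to WT3 and 8.14, 37.3 and 11.6 CPM in KO1 to KO3. Actn2, the crosslinker of the Z-disc, stood at 182, 3.34 and 264 CPM in WT1 to WT3 and 1.13, 22.4 and 0.757 CPM in KO1 to KO3. Its fast-fibre paralog Actn3 stood at 81.6, 2.92 and 184 CPM in WT1 to WT3 and 4.88, 14.99 and 5.30 CPM in KO1 to KO3, with WT2 as the lowest library. Further Z-disc proteins also had WT2 below KO2. Myoz1 stood at 56.1, 1.72 and 94.02 CPM in WT1 to WT3 and 0.348, 5.84 and 0.325 CPM in KO1 to KO3. Tcap stood at 49.4, 2.76 and 72.2 CPM in WT1 to WT3 and 0.740, 7.67 and 0.919 CPM in KO1 to KO3. Ldb3 stood at 111, 5.06 and 183 CPM in WT1 to WT3 and 1.74, 17.6 and 2.11 CPM in KO1 to KO3. The groups overlapped in all 3. Xirp2, an actin-binding protein, stood at 32.8, 7.40 and 81.8 CPM in WT1 to WT3 and 4.61, 9.50 and 5.03 CPM in KO1 to KO3. Smpx, a small muscle protein whose human gene is a deafness gene (mm10 chrX:157698910-157752591, plus strand), stood at 41.9, 12.5 and 56.1 CPM in WT1 to WT3 and 6.49, 11.5 and 6.22 CPM in KO1 to KO3. In Smpx WT2 lay above KO2, and the libraries of the genotypes did not overlap. No other gene of the 34 had groups that did not overlap, where 27.7% of all genes tested did, 12.7% with the WT libraries above.

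The calcium release and uptake genes followed. Cacna1s, the voltage sensor, stood at 38.4, 4.33 and 53.9 CPM in WT1 to WT3 and 1.70, 5.27 and 1.51 CPM in KO1 to KO3. Ryr1, the release channel, stood at 47.5, 2.29 and 88.02 CPM in WT1 to WT3 and 1.70, 6.49 and 1.41 CPM in KO1 to KO3. Casq1, which stores calcium in the sarcoplasmic reticulum, stood at 179, 8.65 and 220.1 CPM in WT1 to WT3 and 2.70, 21.5 and 2.87 CPM in KO1 to KO3. For all 3, WT2 lay closer to KO2 than to WT1 or WT3. Atp2a1, the calcium pump of fast fibres, stood at 581, 16.2 and 1089 CPM in WT1 to WT3 and 1.78, 63.1 and 4.16 CPM in KO1 to KO3. Triadin, Trdn, which links channel and store, stood at 35.4, 1.98 and 49.5 CPM in WT1 to WT3 and 1.09, 7.41 and 0.703 CPM in KO1 to KO3. Of the energy and oxygen genes, muscle creatine kinase, Ckm, stood at 455, 9.23 and 813 CPM in WT1 to WT3 and 1.22, 58.5 and 1.68 CPM in KO1 to KO3, and myoglobin, Mb, at 86.7, 4.27 and 109 CPM in WT1 to WT3 and 1.04, 13.2 and 2.60 CPM in KO1 to KO3.

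Between the genotypes, all 34 genes had fitted changes below 0 (51% of all genes tested), and 0 of the 34 passed the threshold of 0.05 on the adjusted p of the quasi-likelihood test of edgeR, where 0.396% of all genes tested passed, 0.183% as lower in KO. An unadjusted p under 0.05 was found for 22 of the 34 and for 19.6% of all genes tested. The median log2 fold change, KO over WT, was −3.75 over the 34 and −0.01 over all genes tested. By role, the median was −3.74 for the thick filament, −3.91 for the thin filament, −3.59 for the Z-disc, −3.83 for calcium handling and −3.97 for energy and oxygen. The standard errors were large, with a median of 1.38 over the 34 and 0.18 over all genes tested. The coefficient of variation had a median of 89.4% in WT and 127% in KO over the 34, against 17.3% and 7.69% over all genes tested.

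Smpx had the lowest adjusted p of the 34, with 36.8 ± 22.3 CPM in WT and 8.08 ± 3.002 CPM in KO (mean ± SD, n = 3 libraries each; log2 fold change −2.18, SE 0.55, adjusted p = 0.132 with edgeR). For Acta1 the WT libraries averaged 2064 ± 1918 CPM and the KO libraries 98.7 ± 160.3 CPM (mean ± SD, n = 3 libraries each; log2 fold change −4.39, SE 2.04, adjusted p = 0.293 with edgeR). The fitted change was largest for Atp2a1 (log2 fold change −4.61, SE 1.80, adjusted p = 0.231 with edgeR) and smallest for Myl3 (log2 fold change −1.60, SE 0.77, adjusted p = 0.306 with edgeR). DESeq2 called 7 of the 34 lower in KO, against 4.89% of all genes tested, namely Cacna1s, Casq1, Mybpc1, Ryr1, Smpx, Tnni1 and Xirp2. Without WT2, edgeR called 8 of the 34, against 2.37% of all genes tested, namely Actn3, Cacna1s, Mybpc1, Ryr1, Smpx, Tpm2, Ttn and Xirp2. By edgeR 0 of the 34 were called under RLE scaling (0.173% of all genes lower), with no filter (0.141%), with a block for the replicate number (0.00508%) and without WT1 (5.46%). The median change was −2.98 without WT3 and −5.66 without KO2.

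**Figure D2:**
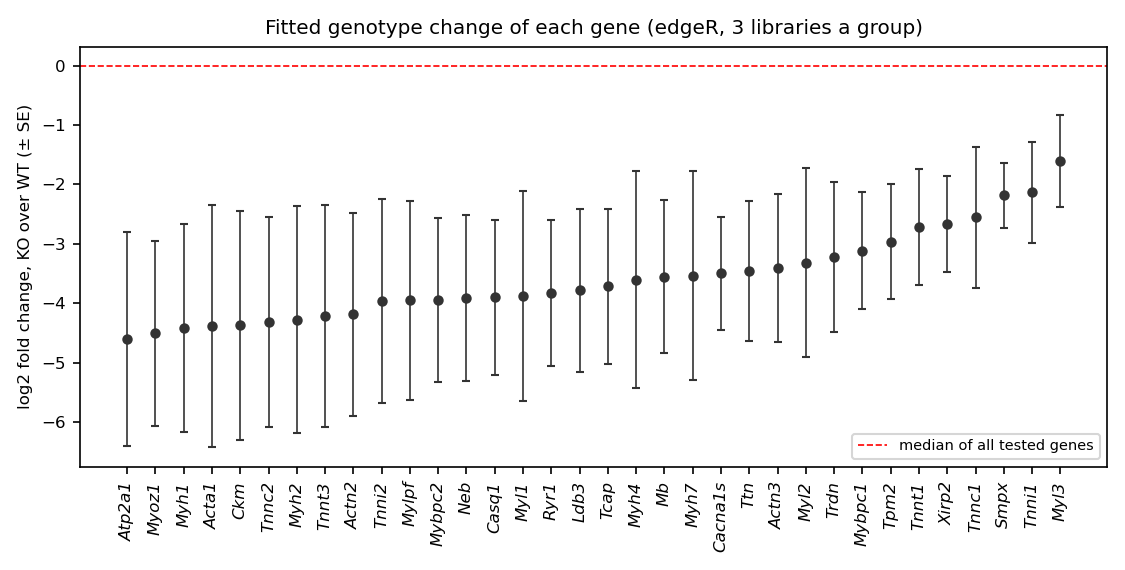
Fitted log2 fold change of each gene, KO over WT, with its standard error, from the edgeR fit on 3 libraries in each group. All 34 lie below 0, from −4.61 for Atp2a1 to −1.60 for Myl3, and 0 passed the threshold.

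Fast and slow forms were compared within each library, as the fast share of counts per exon kilobase, with exact 95% intervals for counting error alone. In the 3 libraries with most muscle reads, the fast form led in every pair but 1. For troponin I (Tnni2 against Tnni1) the fast share was 98.4% in WT1, 97.96% in WT3 and 95.4% in KO2. For troponin T (Tnnt3 against Tnnt1) it was 95.3%, 96.2% and 91.7%, and for troponin C (Tnnc2 against Tnnc1) 98.3%, 97.8% and 95.5%. KO2 was the lowest of the 3 in each troponin pair, with an interval that did not overlap those of WT1 and WT3. The exception was myosin-binding protein C, with a fast share of 11.8%, 19.6% and 12.4%.

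In WT2, KO1 and KO3 some pairs kept these shares and others did not. The regulatory light chains (Mylpf against Myl2) stood at 97.9%, 97.1% and 97.9%, and the heavy chains (Myh1, Myh2 and Myh4 against Myh7) at 97.9%, 96.3% and 97.2%, near the other libraries. The heavy chain share in KO1 rests on 62 counts. The fast share of troponin T was 79.1%, 60.6% and 58.8%, that of troponin I 84.8%, 67.5% and 81.8%, and that of the essential light chains (Myl1 against Myl3) 87.3%, 46.3% and 61.05%. These lay below WT1, WT3 and KO2 with intervals that did not overlap theirs. Troponin C stood at 98.2% in WT2, near WT1 and WT3, unlike the other troponin pairs. It held under 50 counts in KO1 and KO3 and is not given for them. Myosin-binding protein C stood at 6.87% in WT2, 5.76% in KO1 and 4.66% in KO3, below WT1, WT3 and KO2 without overlap of the intervals.

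**Figure D3:**
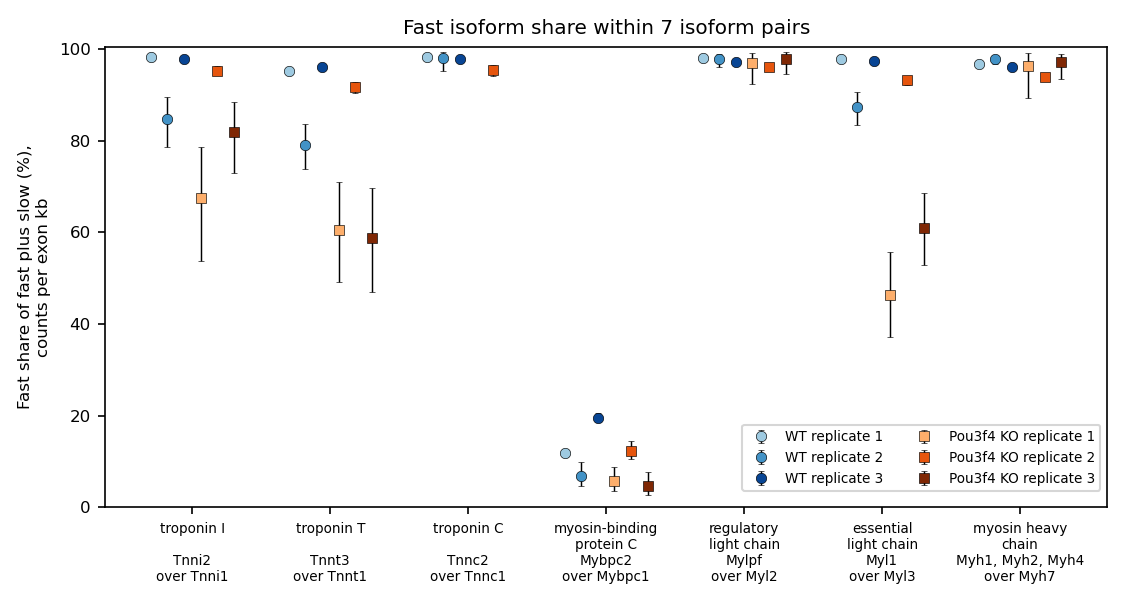
Fast share of 7 fast and slow pairs (%, per exon kilobase) in each library, with exact 95% intervals that cover counting error alone and no point for pairs under 50 counts. The regulatory light chain share is 96.2% to 98.01% over the 6 libraries, while the essential light chain share is 46.3% in KO1.

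Perinatal and embryonic myosin, Myh8 and Myh3, are not among the 34 genes and did not follow their order. Myh8 stood at 812, 6.62 and 433 CPM in WT1 to WT3 and 1.70, 34.03 and 2.33 CPM in KO1 to KO3, and Myh3 at 33.1, 0.678 and 22.3 CPM in WT1 to WT3 and 0.218, 3.57 and 0.270 CPM in KO1 to KO3, and both were higher in WT1 than in WT3, the reverse of all 34 genes. Among 6 skeletal heavy chains per kilobase, Myh8 took 30.8% in WT1, 10.9% in WT3 and 11.3% in KO2. Myh1 took 43.97%, 56.3% and 48.5% in these libraries. The annotated exons of Myh8 are the longest of the 6, at 11772 bp. The ratio of WT3 to WT1 was lowest for Mybpc1 (1.13-fold) and highest for Myh4 (2.89-fold), with a median of 1.66-fold over the 34 genes.

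**Figure D4:**
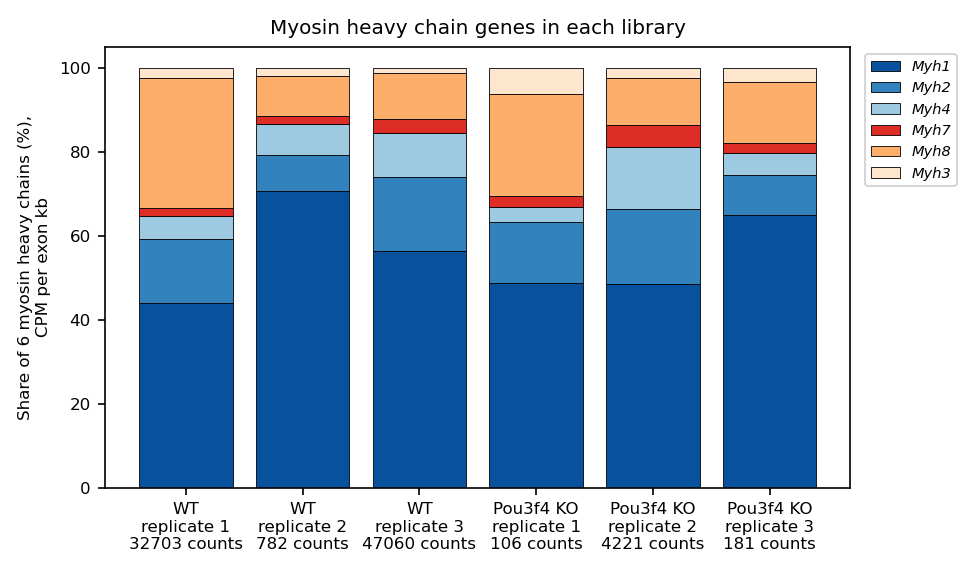
Share of 6 skeletal myosin heavy chain genes (%, per exon kilobase, stacked bars) in each library. Myh8 takes 30.8% in WT1 and 10.9% in WT3, and the bars of KO1 and KO3 rest on 106 and 181 counts.

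What was left in the libraries with least muscle reads differed by gene. KO1, with the lowest summed level, held a median of 0.953% of the WT3 level over the 34 genes. The lowest was Myh4, at 0.0611% on 3 counts. The 5 highest were Myl3 (12.3%), Smpx (11.6%), Tnni1 (6.75%), Xirp2 (5.64%) and Tnnc1 (5.35%). Smpx and Xirp2 are also known from hair cells, and Myl3, Tnni1 and Tnnc1 are slow-fibre genes. Of the other slow-fibre genes, Mybpc1 (4.45%) and Tnnt1 (3.89%) also lay above the median. Myh7, at 0.132% on 3 counts, and Myl2, at 0.440%, lay below it. Genes above the median were not only slow-fibre genes. They included Tpm2 (5.10%), Cacna1s (3.15%) and the fast-fibre genes Actn3 (2.66%), Casq1 (1.23%) and Mybpc2 (1.12%). Summed markers of hair cells stood at 47.7, 126 and 94.9 CPM in WT1 to WT3 and at 91.7, 83.4 and 103 CPM in KO1 to KO3, and none of the 15 was at 0 in any library. Myo7a, the hair bundle myosin, stood at 14.02, 24.3 and 20.2 CPM in WT1 to WT3 and 21.4, 20.05 and 26.01 CPM in KO1 to KO3, and Otof, of the hair cell synapse, at 6.09, 20.2 and 14.9 CPM in WT1 to WT3 and 13.8, 10.9 and 15.5 CPM in KO1 to KO3. Whether such cells held these reads was not tested.

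Genes on the opposite strand bear on some of these counts, since the use of strand in the counting is not given. Ube2c, a cell cycle gene, overlaps 74.0% of the exon length of Tnnc2 and stood at 368, 78.7 and 558 CPM in WT1 to WT3 and 45.5, 86.2 and 57.6 CPM in KO1 to KO3, in the full order of the muscle genes. Rabep2 overlaps 21.9% of the exon length of Atp2a1 and stood at 262, 27.1 and 522 CPM in WT1 to WT3 and 19.5, 48.9 and 20.6 CPM in KO1 to KO3, in the same order. Overlaps also touched Mb (31.9%), Cacna1s (19.98%), Ckm (15.5%), Myh7 (13.3%) and Myh1 (8.11%). Myl3 shares 4.65% of its exon length with Pth1r, a hormone receptor gene that stood at 231, 253 and 289 CPM in WT1 to WT3 and 334, 307 and 310.2 CPM in KO1 to KO3, without the muscle order and far above the counts of Myl3. Its part in the KO1 level of Myl3 and in the essential light chain share was not tested. Reads of such pairs cannot be told apart in the table.

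Further muscle genes were read from lists. Of 25 sarcomere partners, 25 had changes below 0, 21 had the same 3 highest libraries and 0 passed with edgeR (20 at an unadjusted p under 0.05). The M-band protein Myom1 stood at 96.2, 18.4 and 139 CPM in WT1 to WT3 and 28.3, 35.4 and 30.4 CPM in KO1 to KO3, and filamin C, Flnc, at 104, 18.3 and 121 CPM in WT1 to WT3 and 20.8, 26.2 and 25.7 CPM in KO1 to KO3. Of 18 tested excitation and calcium partners, 18 had changes below 0, 10 had the same 3 highest libraries and 0 passed with edgeR (16 at an unadjusted p under 0.05). Parvalbumin, Pvalb, a calcium buffer of fast fibres and of some neurons, stood at 107, 84.3 and 219.6 CPM in WT1 to WT3 and 44.4, 61.1 and 35.2 CPM in KO1 to KO3, and Asph at 131, 107 and 134 CPM in WT1 to WT3 and 117, 120.4 and 119 CPM in KO1 to KO3. Of 12 muscle energy genes, 11 had changes below 0, 7 had the same 3 highest libraries and 1, Car3, passed as lower in KO. Car3, a carbonic anhydrase of slow muscle and fat, stood at 737, 1068 and 1067 CPM in WT1 to WT3 and 412, 442 and 421 CPM in KO1 to KO3 (log2 fold change −1.17, SE 0.16, adjusted p = 0.0490 with edgeR), without the muscle order. Pfkm, muscle phosphofructokinase, stood at 162, 112 and 219 CPM in WT1 to WT3 and 82.5, 93.99 and 77.3 CPM in KO1 to KO3. Of 10 tested developmental and cardiac forms, 10 had changes below 0, 1 had the same 3 highest libraries and 0 passed with edgeR (6 at an unadjusted p under 0.05).

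Genes listed as non-muscle and smooth muscle paralogs did not follow the full muscle order. Of this list, Tpm1, Tpm3 and Atp2a2 are also made in skeletal muscle fibres. Of 17, 8 had changes below 0, with a median of 0.05, 1 (Tpm1) had the same 3 highest libraries, and 0 passed with edgeR (6 at an unadjusted p under 0.05). Cytoplasmic actins stood at 1117 to 1359.9 CPM (Actb) and 1153 to 1402 CPM (Actg1) over the 6 libraries. Outside the 34 genes, 38 tested genes had the full muscle order with a range of at least 20-fold. Those with a high mean level included Rabep2, Des, Myhas, Sypl2, Nrap, Klhl41, Ckmt2, Myoz2 and Mylf-ps. Of these, Rabep2 and Myhas overlap exons of Atp2a1 and Myh1 on the opposite strand, and Mylf-ps is named as a pseudogene. Whether they shared reads with the 34 genes was not tested. Desmin, Des, the intermediate filament of muscle, stood at 181, 12.8 and 308 CPM in WT1 to WT3 and 4.31, 24.1 and 4.65 CPM in KO1 to KO3, and Sypl2, a protein of the triad, at 74.2, 1.88 and 109 CPM in WT1 to WT3 and 0.522, 11.1 and 0.649 CPM in KO1 to KO3.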

How the data were processed

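The deposited values are raw read counts, whole numbers with no normalization, in 1 table for the 6 libraries. Per the labels' protocols, RNA was extracted with Trizol and sequenced after preparation with the TruSeq Stranded mRNA kit. Trimmomatic, HISAT2, Cufflinks, HTSeq and mm10 are listed in the submitters' processing notes. The strand setting and annotation release were not stated. Libraries were grouped by title. Genes were kept with filterByExpr (minimum count 10), scaled by TMM and tested for genotype with the quasi-likelihood test of edgeR 4.0.16, with Benjamini-Hochberg adjustment over all genes and a threshold of 0.05. SE is the size of the fitted change divided by the square root of F. DESeq2 1.42.0, RLE scaling, no filter, a replicate block and leaving out each library were alternatives. Exon lengths and overlaps come from GENCODE M21, whose coordinates were identical for 33 of the 34 genes (not Xirp2). The fit was tested on simulated data that gave every gene the same spread, well below that of the 34 genes. That run therefore does not show how the fit behaves for genes this variable.

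The 34 genes and all lists were chosen with earlier results of these data known. Beside the 34, the text names the 2 genes with the highest mean level in each list, genes of a list that passed the test, abundant genes in the library order of the muscle genes (the 10 highest by rule) and the 5 highest residual levels. Myh3, Myod1, Myf5, Myf6, Myog, Mymk, Mymx, Chodl, Msc, Pax7, Pax3, Vgll2, Lbx1, Thbs4, Kera, Tnmd, Scx, Mkx, Tpm1, Tpm3, Atp2a2, Pth1r and Ube2c were named after their values were seen. Some genes that this rule names are not reported here.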

Additional observations from a re-analysis of the deposited data

How the results depend on the processing

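All 34 genes kept fitted changes below 0 under each alternative run. Of 340 single-gene changes under alternatives, 15 passed the threshold that they missed in the main setting, 7 with DESeq2 and 8 without WT2, with 5 genes in both. Over all genes, 78 were called, 1603 with DESeq2 and 0 to 1814 with 1 library left out (1814 without WT1, 760 without WT2 and 0 with edgeR without any other, where 2087 to 3364 had an unadjusted p under 0.05). Of the 34 genes, 0 to 8 were called with 1 library left out and 7 with DESeq2. Their median change ranged from −5.66 to −2.98 with 1 library left out. The causes were not tested. The groups share replicate numbers. Deviations from the group means of same-numbered libraries correlated at −0.131, −0.295 and −0.191, and those of different-numbered libraries at −0.0767 to 0.237. The numbers thus showed no sign of pairing, but so few libraries cannot exclude it. With the replicate block 1 gene was called in all and 0 of the 34 (1 at an unadjusted p under 0.05, edgeR), with a median change of −4.25.

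Fast shares from counts not divided by exon length were 69.8%, 46.3% and 65.2% for troponin I in WT2, KO1 and KO3, and 97.8%, 97.6% and 97.2% for troponin C in WT1 to WT3. For the regulatory light chains they were 96.4%, 96.1% and 95.1% in WT1 to WT3 and 94.7%, 93.2% and 96.2% in KO1 to KO3. For the heavy chains they were 95.9%, 94.9% and 92.1% in WT1, WT3 and KO2. Low counts of the muscle genes, not a low library total, limit the precision in KO1 and KO3, where 30 of the 34 genes reached 10 counts in each.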

Other observations

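Genes of fat and some genes of tendon were uneven across the libraries as well. Adipocyte genes set WT1 apart, with a summed level of 1979 CPM there, 93.6 and 199 CPM in WT2 and WT3 and 83.3 to 88.2 CPM in the KO libraries. Ucp1, the uncoupling protein of brown fat, stood at 1181, 7.61 and 11.8 CPM in WT1 to WT3 and 0.131, 0 and 0.108 CPM in KO1 to KO3, and Fabp4, a fatty acid carrier, at 548, 54.8 and 136 CPM in WT1 to WT3 and 55.7, 55.4 and 57.9 CPM in KO1 to KO3. Of 7 tested adipocyte genes, 0 passed with edgeR (6 at an unadjusted p under 0.05). Tendon genes summed to 855 CPM in WT1 and 375 to 572 CPM in the other 5 libraries, and 0 of 7 passed with edgeR (3 at an unadjusted p under 0.05). The most abundant of them, Fmod (180.2 to 325 CPM) and Egr1 (103 to 225 CPM), differed little beside Thbs4, at 141, 8.24 and 78.6 CPM in WT1 to WT3 and 1.74, 12.1 and 1.84 CPM in KO1 to KO3, and Kera, at 54.1, 3.54 and 45.4 CPM in WT1 to WT3 and 1.83, 6.62 and 3.19 CPM in KO1 to KO3. The rest of the tendon list differed less than Thbs4 and Kera. Its highest library exceeded the lowest 3.48-fold for Tnmd, 3.42-fold for Scx and 1.27-fold for Mkx. Of 14 tested hair cell genes, 0 passed with edgeR (0 at an unadjusted p under 0.05).

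Among myogenic regulators and satellite cell genes, 9 of 14 were tested, 7 of these had changes below 0, 3 had the same 3 highest libraries as the muscle genes and 0 passed with edgeR (6 at an unadjusted p under 0.05). Mef2c and Cdh15, the most abundant of that list, did not follow the muscle order. Mef2c stood at 300, 287 and 318 CPM in WT1 to WT3 and 345, 337 and 340 CPM in KO1 to KO3. Cdh15 stood at 8.05, 11.99 and 13.02 CPM in WT1 to WT3 and 20.8, 21.9 and 22.7 CPM in KO1 to KO3 (log2 fold change 0.98, SE 0.19, adjusted p = 0.0879 with edgeR). In both, the KO libraries lay above the WT ones. The groups did not overlap in 27.7% of all genes tested. Myog, which drives fibre differentiation, stood at 13.6, 0.626 and 6.86 CPM in WT1 to WT3 and 0, 1.53 and 0.0541 CPM in KO1 to KO3, higher in WT1 than in WT3, as Myh8 and Myh3 were. Chodl (19.5 and 5.44 CPM in WT1 and WT3), Mymk (4.08 and 0.966 CPM) and Mymx (0.838 and 0.254 CPM) were likewise higher in WT1. So were Msc (1.56 and 1.27 CPM) and Pax7 (1.90 and 1.78 CPM). Lower in WT1 than in WT3 were Myod1 at 4.47 and 6.86 CPM, Myf6 at 5.98 and 9.41 CPM and Myf5 at 0.838 and 1.53 CPM. The rest of the list, Vgll2, Lbx1, Pax3, Cdh15 and Mef2c, was also lower in WT1. Casq2, the calcium store protein of slow and cardiac muscle, stood at 89.4, 4.59 and 66.00 CPM in WT1 to WT3 and 1.83, 11.8 and 2.16 CPM in KO1 to KO3. Of 8 cartilage genes, 2 were lower in KO with edgeR (Col2a1 and Col9a1), with Col2a1 at 6187, 5597 and 6275 CPM in WT1 to WT3 and 3119, 2637 and 2699.9 CPM in KO1 to KO3 and Col11a2 at 1273, 1691 and 1668 CPM in WT1 to WT3 and 1893, 1700.1 and 2047 CPM in KO1 to KO3. Of 7 Schwann cell genes, 3 were lower in KO with edgeR, Pmp22 and Prx among them. Pmp22 stood at 966, 1384 and 1031 CPM in WT1 to WT3 and 476, 509.6 and 427 CPM in KO1 to KO3. Prx stood at 197, 264 and 221 CPM in WT1 to WT3 and 115, 113 and 124 CPM in KO1 to KO3. Mbp stood at 1078, 2559.7 and 2657 CPM in WT1 to WT3 and 1051, 1266 and 1079 CPM in KO1 to KO3. No gene of either list had the 3 highest libraries of the muscle genes.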
